A study of Mus musculus with 2 samples.

Results

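The genes described here encode the nuclear pore complex, the receptors and Ran-binding proteins that carry cargo through it, and proteins of the nuclear envelope. They also encode SUMO enzymes, some of which reside at the pore. The rule takes symbols alone, with name patterns such as Nup, Xpo, Ipo, Kpna, Syne and Senp, and 53 of the 4788 genes in the deposited FMRP RIP-seq table met the rule. RNA immunoprecipitation sequencing (RIP-seq) compares RNA that precipitates with a protein with the RNA of the starting lysate. One library of input RNA and one library precipitated with an anti-FMRP antibody, both from the testis of adult wild type mice, were compared. With 1 library in each group there is no replicate check, so no test between the groups was made, and no IgG library was used here. Only protein-coding genes that the authors marked as higher after FMRP precipitation are in the table. The direction of every value below was therefore fixed by that selection, and values of genes outside the list were not analysed here. The paper's methods also set a least fold change for FMRP targets. Genes with smaller rises are therefore absent, and the low end of the ratios below is cut off.

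The nuclear pore is a large protein channel through both membranes of the nuclear envelope. Y-complex and inner ring nucleoporins build its scaffold, membrane nucleoporins anchor it, and nucleoporins rich in phenylalanine-glycine repeats fill the channel and extend as cytoplasmic filaments and a nuclear basket. Importins and exportins move cargo through it under the control of the GTPase Ran, and LINC complexes and the lamina tie the envelope to the cytoskeleton and the chromatin. During spermatid elongation the nucleus is reshaped and pores are lost from much of the envelope. FMRP is an RNA-binding protein best known for regulating translation.

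By the total of each library, the input held 30849871 reads and the FMRP RIP 36506932. Values are CPM, the reads on a gene per 1000000 reads of the library, and are not corrected for transcript length. Levels are therefore compared between libraries and not between genes. Both libraries come from whole testis, so RNA of a few cells and little RNA in many cells cannot be told apart. The log2 ratio is log2 of (FMRP RIP CPM + 1) over (input CPM + 1), so that changes of genes with few reads are understated. Plain CPM ratios carry in parentheses their exact 95% interval (Clopper-Pearson), computed from reads rounded to whole numbers and covering counting error only. Of 6 marker genes of spermatogonia and spermatocytes, 1 was listed (*Sycp1*, log2 ratio 1.11). None of the 6 spermatid, 6 Sertoli, 5 Leydig, 2 peritubular, 3 macrophage, 2 endothelial or 2 erythrocyte markers was, so the table alone does not check the tissue label.

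Input levels of the 53 genes ran from 3.08 to 469 CPM and FMRP RIP levels from 6.46 to 1759 CPM. Every gene had at least 95 reads in the input. Together the genes took 3725 CPM of the input and 12608 CPM of the FMRP RIP, a ratio of 3.38. The ratio was 3.33 without *Ipo5*, which held the most member reads in both libraries, and 3.89 over all listed genes. The log2 ratios ran from 0.65 (*Senp7*) to 4.73 (*Tpr*) with a median of 1.34, against a median of 1.35 for all listed genes.

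A log2 ratio above 1 was reached by 35 of the 53 genes (66.0%), beside 70.1% of all listed genes. A log2 ratio above 2 was reached by 14 (26.4%), beside 25.0%. Taken over all input levels, both shares lie near their background and set the group apart from the list in neither direction. Input classes were under 10 CPM, 10 CPM to under 100 CPM, and 100 CPM or more, holding 11, 29 and 13 of the genes. In that order, 54.5%, 72.4% and 61.5% were above 1, beside 62.5%, 77.6% and 81.8% of all listed genes. Above 2 were 36.4%, 31.0% and 7.69%, beside 19.3%, 31.9% and 25.8%. These differences were not tested. When all listed genes were split by log2 ratio into 4 parts of equal size, the parts held 15, 12, 12 and 14 of the 53 genes from the lowest to the highest. The values of *Kpna4* (1.01) and *Xpo1* (1.14) lay just above the limit of 1, and those of *Ranbp3* (0.96) and *Nup210l* (0.94) just below it.

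**Figure D1:**
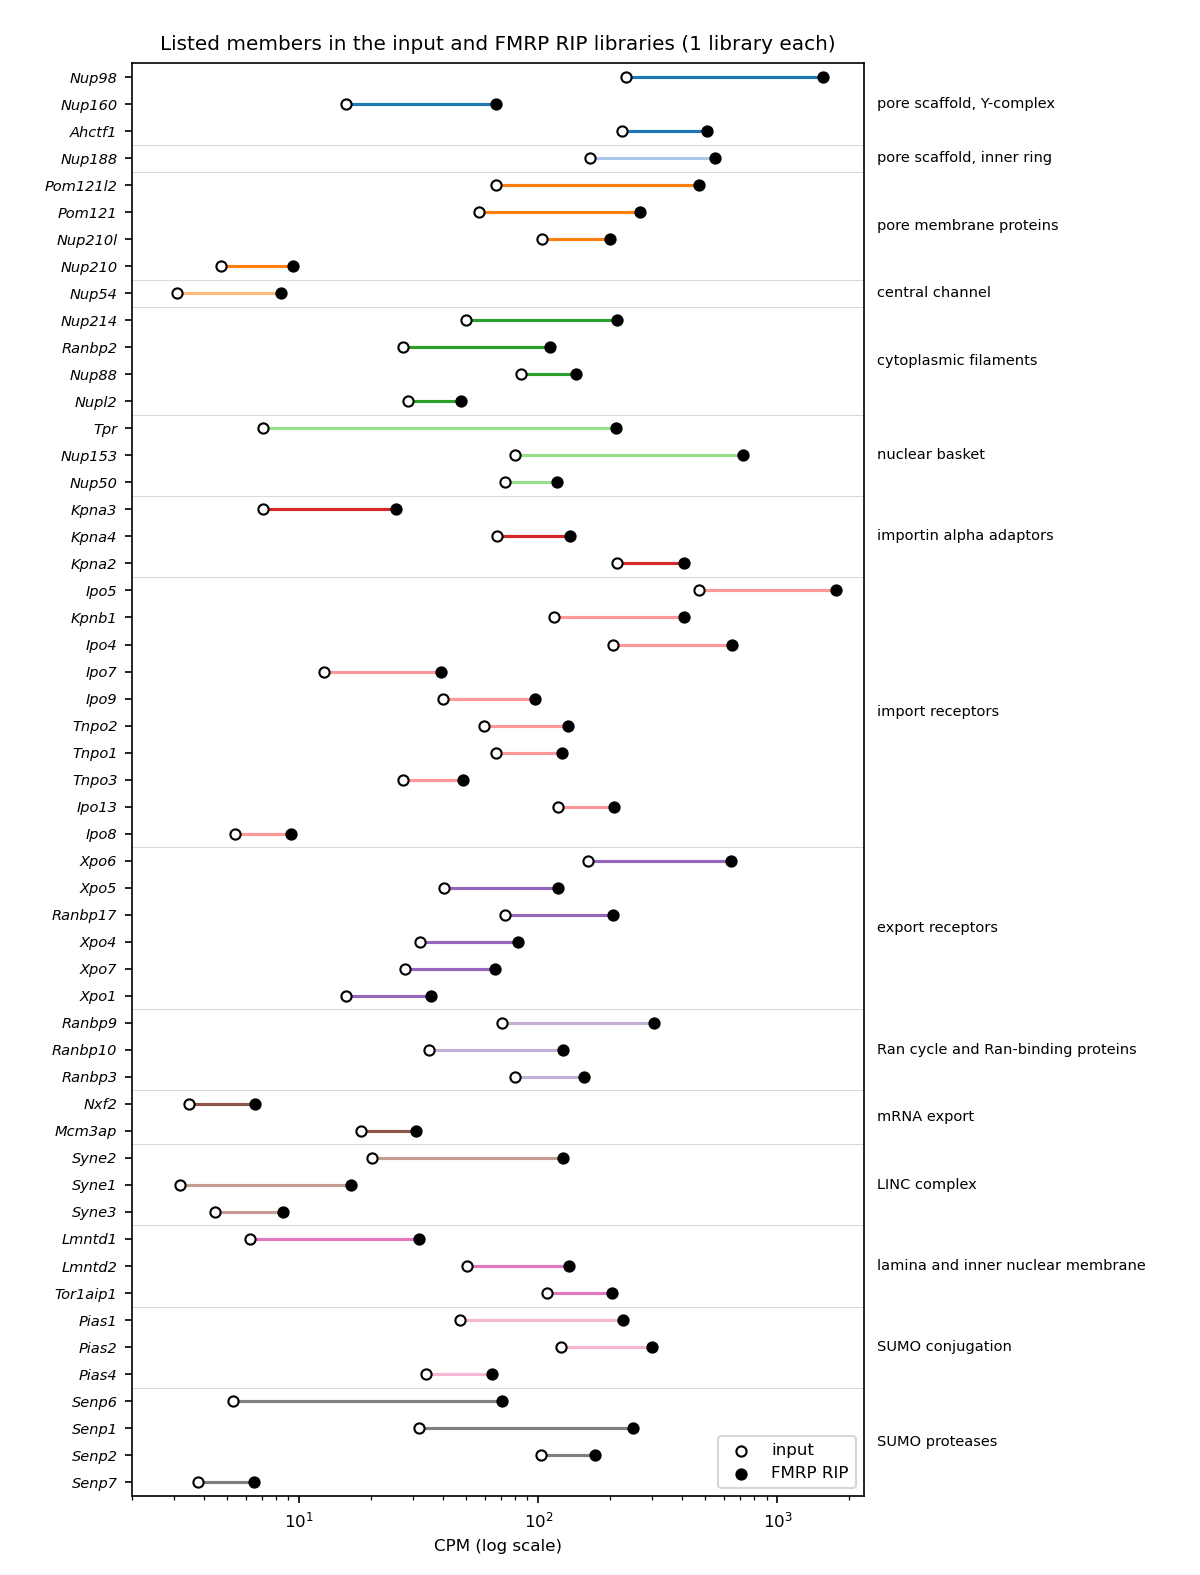
CPM of each of the 53 listed genes in the input (open circles) and the FMRP RIP (filled circles), on a log axis, grouped by role, with 1 library per group. Line length on this axis is the ratio between the libraries; the longest line is that of *Tpr*, from 7.03 to 212 CPM.

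The nuclear basket faces the nucleoplasm and holds 3 of these genes, which differed widely from each other. *Tpr* (ENSMUSG00000006005, GRCm38 chromosome 1 from 150392838 to 150449935) encodes the coiled-coil filament of the basket. Its level was 7.03 CPM in input RNA and 212 CPM in RIP RNA, a ratio of 30.1 (interval 26.3 to 34.6). This was the highest ratio of the 53 genes and ranked 21 of all 4788 by log2 ratio. *Nup153* (ENSMUSG00000021374, chromosome 13 from 46679905 to 46727940), the nucleoporin that anchors the basket, had 79.6 CPM and 717 CPM, a ratio of 9.01 (8.64 to 9.39). *Nup50*, which helps to release importin cargo, had 72.2 CPM and 120 CPM, a ratio of 1.66 (1.58 to 1.75). So the basket held the highest value of the group and one of its lowest: the log2 ratios were 4.73, 3.16 and 0.72, and the intervals do not overlap.

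Among the scaffold genes of the Y-complex, *Nup98* (chromosome 7 from 102119398 to 102210176) had the highest ratio. This gene encodes a precursor that is cut into the repeat nucleoporin NUP98 and the scaffold protein NUP96, and its transcript had 232 CPM in input RNA and 1546 CPM in RIP RNA. That is a ratio of 6.67 (6.51 to 6.84). *Nup160* had 15.8 CPM and 66.5 CPM, a ratio of 4.22 (3.83 to 4.66). *Ahctf1*, whose product ELYS seeds pores on chromatin, had 223 CPM and 510 CPM, a ratio of 2.29 (2.22 to 2.35). The 3 Y-complex genes thus covered ratios from 2.29 to 6.67, with no overlap of their intervals. In the inner ring only *Nup188* was listed, with 165 CPM and 546 CPM, a ratio of 3.31 (3.21 to 3.41). In the central channel only *Nup54* was, with 3.08 CPM and 8.41 CPM, a ratio of 2.73 (2.16 to 3.47) that rests on 95 input reads.

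Membrane nucleoporins formed a high and a low pair. *Pom121l2*, a relative of *Pom121*, had 66.4 CPM in input RNA and 471 CPM in RIP RNA, a ratio of 7.10 (6.78 to 7.44). *Pom121*, which encodes the pore anchor itself, had 56.6 CPM and 267 CPM, a ratio of 4.72 (4.49 to 4.97). *Nup210* had 4.70 CPM and 9.42 CPM, a ratio of 2.0 (1.65 to 2.45), and *Nup210l* had 103 CPM and 199 CPM, a ratio of 1.93 (1.85 to 2.01). The intervals of the last pair overlap, and both lie below those of *Pom121* and *Pom121l2*.

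Of the cytoplasmic filaments, *Nup214* had 49.8 CPM in input RNA and 213 CPM in RIP RNA, a ratio of 4.29 (4.06 to 4.53). *Ranbp2* (NUP358), a very large SUMO ligase and Ran-binding nucleoporin, had 27.2 CPM and 112 CPM, a ratio of 4.11 (3.81 to 4.43). The intervals of these genes overlap. *Nup88*, the partner of *Nup214* in this part of the pore, had 84.5 CPM and 144 CPM, a ratio of 1.71 (1.63 to 1.79). *Nupl2*, which takes part in mRNA export at the filaments, had 28.5 CPM and 47.3 CPM, a ratio of 1.66 (1.53 to 1.80). The NUP214 and NUP88 proteins sit in one subcomplex, and the ratios of their transcripts did not overlap within counting error.

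**Figure D2:**
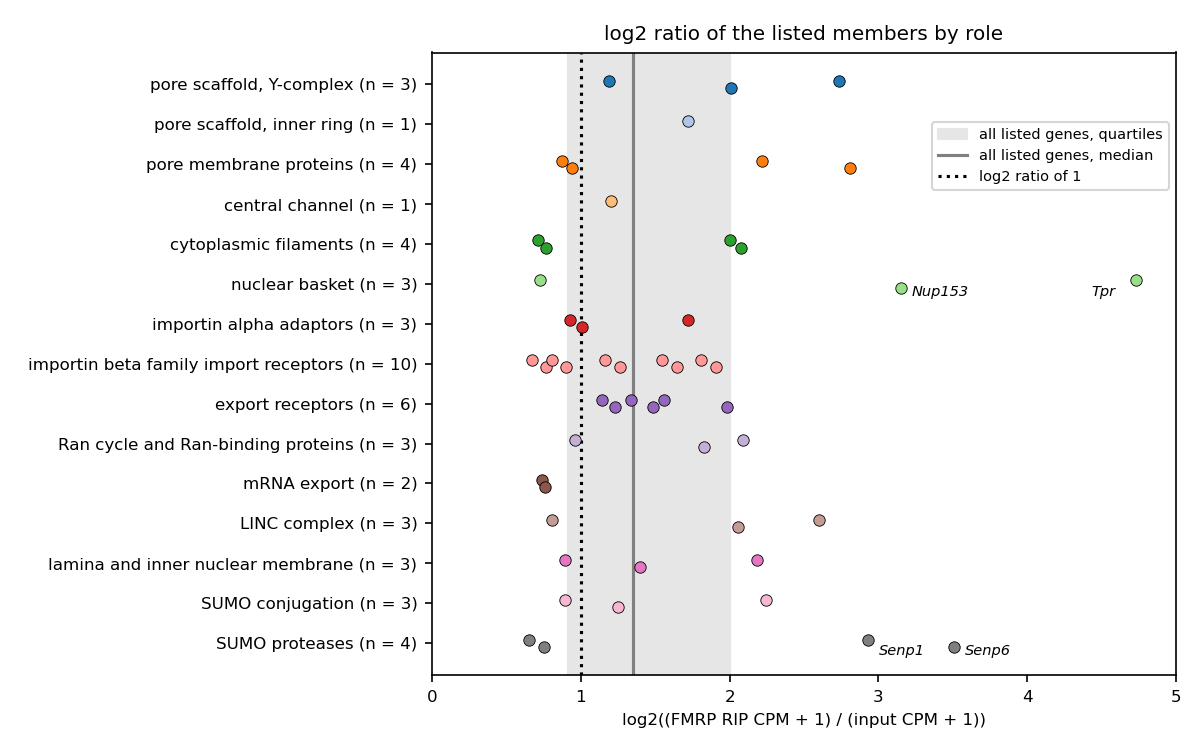
log2 ratio (FMRP RIP over input, pseudocount 1 CPM) of each listed gene by role, 1 point per gene, with the median (1.35) and the quartiles (0.92 and 2.0) of all listed genes as a line and a band. Points above the upper quartile come from nucleoporins, Ran-binding, LINC, lamin tail and SUMO genes, whereas all points of import and export receptors lie below 2.

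Transport receptors covered a narrower range than nucleoporins. The 16 nucleoporin genes had log2 ratios from 0.71 to 4.73 with a median of 1.86, and the 19 receptors and adaptors from 0.67 to 1.98 with a median of 1.26. Among the nucleoporins 11 were above 1, and among receptors and adaptors 14, both close to the 70.1% of all listed genes. The difference between the medians was not tested, since genes are not replicates.

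Importin beta receptors bind cargo or an adaptor and release it when Ran-GTP binds in the nucleus. *Ipo5*, the importin of ribosomal proteins and histones, had 469 CPM in input RNA and 1759 CPM in RIP RNA, a ratio of 3.75 (3.68 to 3.82). *Kpnb1* (importin beta 1), the classical import receptor, had 116 CPM and 408 CPM, a ratio of 3.53 (3.40 to 3.66). *Ipo4* had 205 CPM and 643 CPM, a ratio of 3.14 (3.06 to 3.23). These receptors held more than 100 CPM in both libraries. At the other end, *Ipo13* had 121 CPM and 207 CPM, a ratio of 1.70 (1.64 to 1.77), and *Ipo8* had 5.41 CPM and 9.23 CPM, a ratio of 1.71 (1.41 to 2.07). The remaining receptors, *Ipo7*, *Ipo9*, *Tnpo2*, *Tnpo1* and *Tnpo3*, had log2 ratios of 1.55, 1.26, 1.16, 0.90 and 0.80.

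The adaptors of the importin alpha family link cargo with a classical nuclear localization signal to importin beta. *Kpna3* had 7.03 CPM in input RNA and 25.5 CPM in RIP RNA, a ratio of 3.63 (3.12 to 4.22). *Kpna4* had 67.1 CPM and 136 CPM, a ratio of 2.03 (1.93 to 2.14), and *Kpna2* had 214 CPM and 407 CPM, a ratio of 1.91 (1.85 to 1.96). *Kpna3* thus stood apart from the other adaptors by more than counting error.

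The 6 listed export receptors had log2 ratios from 1.14 to 1.98, all above the limit of 1 that 70.1% of all listed genes passed, so with 6 genes the count says little about export receptors. *Xpo6*, the actin exportin, had the highest value, with 161 CPM in input RNA and 640 CPM in RIP RNA and a ratio of 3.97 (3.85 to 4.10). *Xpo5*, which exports microRNA precursors, had 40.3 CPM and 121 CPM, a ratio of 2.995 (2.81 to 3.19). These 2 receptors carry very different cargo. *Ranbp17* had 72.4 CPM and 205 CPM, a ratio of 2.83 (2.69 to 2.96), and *Xpo4* had 32.0 CPM and 82.4 CPM, a ratio of 2.58 (2.40 to 2.77). The lowest were *Xpo7*, with 27.6 CPM and 66.1 CPM and a ratio of 2.39 (2.21 to 2.59), and *Xpo1* (CRM1), the general receptor for proteins with a nuclear export signal. *Xpo1* had 15.6 CPM and 35.7 CPM, a ratio of 2.28 (2.06 to 2.54). The intervals of *Xpo7* and *Xpo1* overlap.

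The central enzymes of the Ran cycle, *Rangap1* and *Rcc1*, were not listed. The listed genes of that group bind Ran or are named for it. *Ranbp9*, a scaffold of an E3 ubiquitin ligase complex, had 70.5 CPM in input RNA and 304 CPM in RIP RNA, a ratio of 4.31 (4.12 to 4.52). Its relative *Ranbp10* had 35.0 CPM and 127 CPM, a ratio of 3.63 (3.40 to 3.88). *Ranbp3*, a cofactor of XPO1, had 79.8 CPM and 156 CPM, a ratio of 1.95 (1.86 to 2.05). Both mRNA export genes were low: *Nxf2*, a paralog of the general export factor *Nxf1*, had 3.47 CPM and 6.55 CPM, a ratio of 1.89 (1.497 to 2.39). *Mcm3ap*, which encodes the scaffold GANP of the TREX-2 complex, had 18.2 CPM and 30.9 CPM, a ratio of 1.70 (1.54 to 1.89).

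In the LINC complex, nesprins of the outer nuclear membrane bind SUN proteins of the inner one. *Syne2* (nesprin-2) had 20.1 CPM in input RNA and 127 CPM in RIP RNA, a ratio of 6.31 (5.80 to 6.87). *Syne1* (nesprin-1) had 3.18 CPM and 16.4 CPM, a ratio of 5.17 (4.17 to 6.46) that rests on 98 input reads. *Syne3* had 4.44 CPM and 8.52 CPM, a ratio of 1.92 (1.56 to 2.36). *Syne1* and *Syne2* overlap in their intervals and lie above *Syne3*. *Syne4* and the SUN genes *Sun1*, *Sun2* and *Sun3* were not listed.

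No lamin gene was listed. The lamina group was represented by *Lmntd1* and *Lmntd2*, which carry only a lamin tail domain, and by *Tor1aip1*, which encodes the torsin cofactor LAP1. *Lmntd1* had 6.22 CPM in input RNA and 31.8 CPM in RIP RNA, a ratio of 5.11 (4.38 to 5.98). *Lmntd2* had 50.5 CPM and 135 CPM, a ratio of 2.67 (2.52 to 2.82), and *Tor1aip1* had 108 CPM and 202 CPM, a ratio of 1.87 (1.79 to 1.95).

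SUMO proteases mature SUMO and remove it from proteins, and some of them reside at the pore. Their log2 ratios ran from 0.65 to 3.51. *Senp6*, which trims SUMO chains, had 5.28 CPM in input RNA and 70.6 CPM in RIP RNA, a ratio of 13.4 (11.4 to 15.8). *Senp1* had 31.7 CPM and 248 CPM, a ratio of 7.83 (7.33 to 8.38). *Senp2* had 102 CPM and 173 CPM, a ratio of 1.69 (1.62 to 1.76), and *Senp7* had 3.76 CPM and 6.46 CPM, a ratio of 1.72 (1.37 to 2.17). Thus *Senp6* and *Senp1* lay far above *Senp2* and *Senp7*, whose intervals overlap. Of the SUMO ligases, *Pias1* had 47.0 CPM and 227 CPM, a ratio of 4.83 (4.56 to 5.11). *Pias2* had 125 CPM and 298 CPM, a ratio of 2.39 (2.30 to 2.48), and *Pias4* had 33.9 CPM and 63.9 CPM, a ratio of 1.88 (1.75 to 2.03). The intervals of the ligases are apart from each other.

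In 12 pairs of paralogs with both genes listed, picked after the values were known, the ratios of the partners differed by 1.04-fold to 7.77-fold. Their intervals were apart in 10 pairs and overlapped in 2, *Nup210* with *Nup210l* and *Syne1* with *Syne2*. The widest gap was between *Senp6* and *Senp7*, at 7.77-fold, followed by *Senp1* and *Senp2*, at 4.64-fold. *Pias1* and *Pias2* were 2.02-fold apart, *Lmntd1* and *Lmntd2* 1.92-fold, *Ipo7* and *Ipo8* 1.80-fold, and *Kpna3* and *Kpna4* 1.79-fold. The gaps of *Tnpo2* over *Tnpo1* (1.20-fold), *Ranbp9* over *Ranbp10* (1.19-fold) and *Ranbp17* over *Xpo7* (1.18-fold) were smaller, although their intervals were apart as well. These intervals hold no spread between replicates, and unrelated genes were not paired for comparison, so the counts of pairs say nothing particular to related genes.

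**Figure D3:**
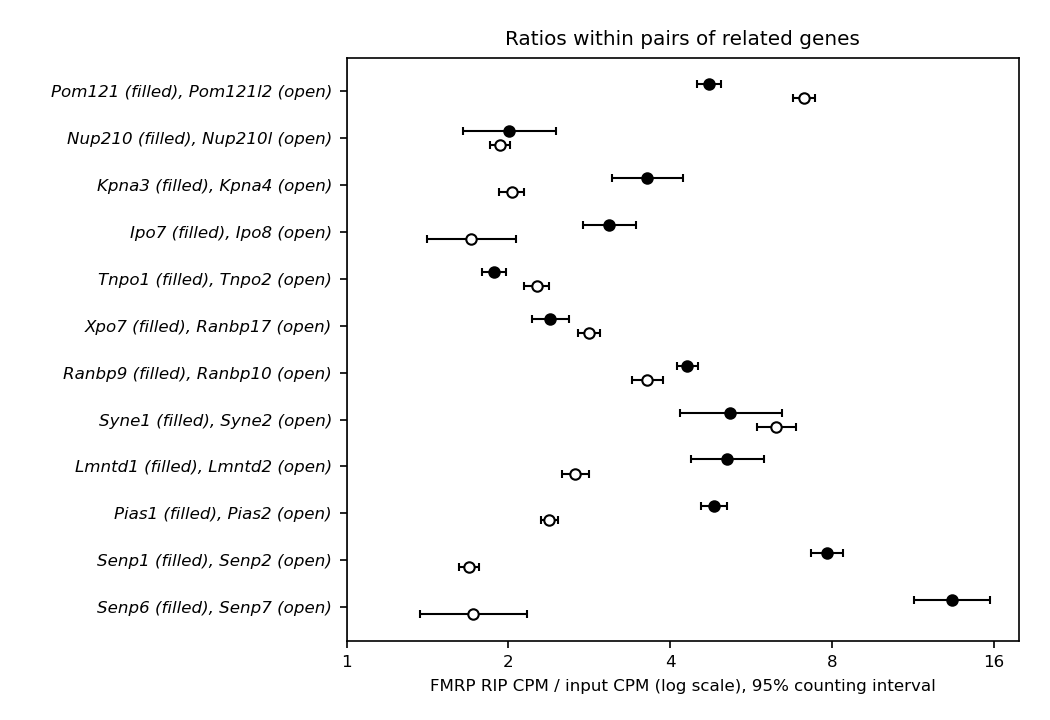
Ratio of FMRP RIP to input CPM on a log axis for both genes of 12 pairs of related genes, with exact 95% counting intervals as bars and 1 library per group. *Senp6* (13.4) and *Senp7* (1.72) are the pair farthest apart.

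The RefSeq annotation of GRCm38.p6 holds 105 protein-coding genes that match the same name rule. Of these, 53 were listed (50.5%), beside 21.3% of all 21900 protein-coding reference genes, expressed in testis or not. The group was picked for description with earlier results of these data known, so this share is no independent evidence that such genes are listed more often. By role, those listed were 3 of 3 nuclear basket genes, 10 of 12 importin beta family import receptors, 4 of 5 cytoplasmic filament genes and 6 of 8 export receptors. Among membrane nucleoporins it was 4 of 6, and among genes named Senp 4 of 7. The counts were lower in the Y-complex (3 of 8), the inner ring (1 of 5), the central channel (1 of 4), the Ran group (3 of 9), mRNA export (2 of 5) and the LINC complex (3 of 7). In the lamina group 3 of 14 genes were listed, and *Lmna*, *Lmnb1*, *Lmnb2*, *Lbr*, *Emd* and *Tmpo* were among those that were not. The importin alpha adaptors and the SUMO conjugation genes were listed in 3 of 6 cases each. A gene may be absent because it was not higher, rose by less than the fold change limit, or had too few reads. The table does not tell these apart.

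**Figure D4:**
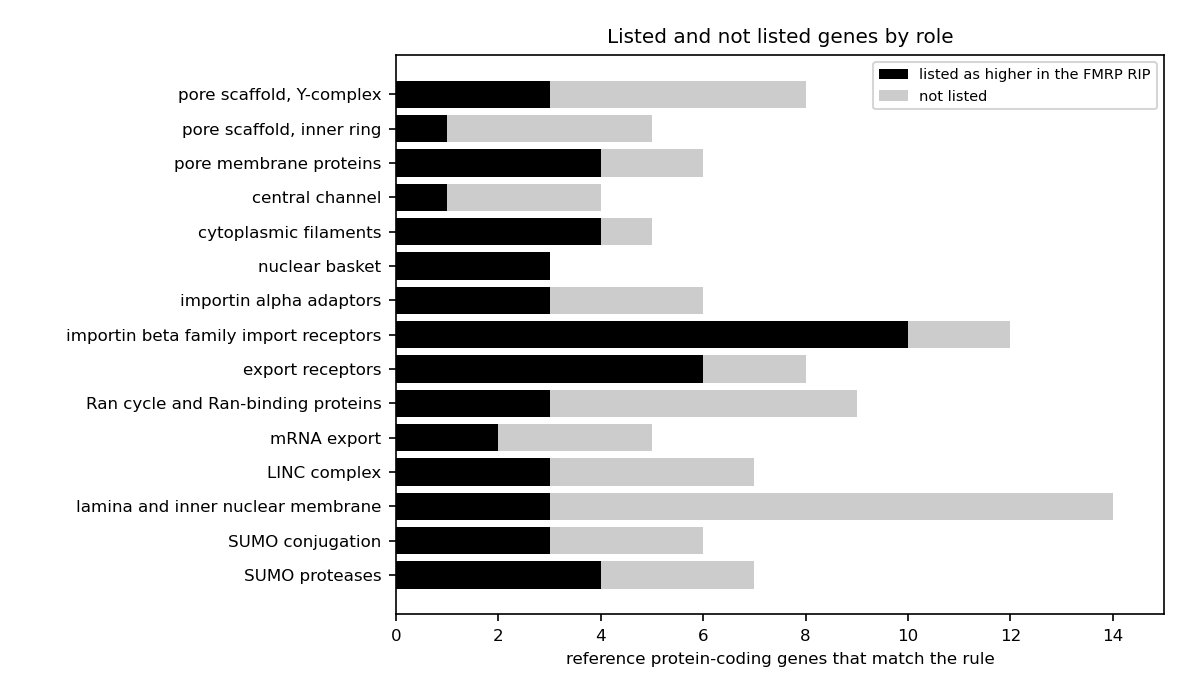
Number of protein-coding reference genes matching the rule in each role, split into those listed as higher in the FMRP RIP (black) and those not listed (grey). All 3 basket genes and 10 of 12 importin beta family receptors are black, against 3 of 14 genes of the lamina and inner nuclear membrane.

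Gene span, the distance between the ends of a gene including introns, moved with listing. Listed genes of the group had a median span of 54.9 kb in the reference and those not listed 28.8 kb, against 48.7 kb and 12.5 kb over all protein-coding genes. In the group, 8 of 27 genes under 20 kb were listed (29.6%), beside 8.25% of all genes of that span. From 20 kb to under 50 kb it was 16 of 37 (43.2%, beside 27.6%), from 50 kb to under 100 kb 21 of 31 (67.7%, beside 43.3%), and at 100 kb or more 8 of 10 (80.0%, beside 49.2%). The share in the group was thus above that of all genes in each span class. The median input level was 47.0 CPM for the 53 listed genes and 9.27 CPM for all listed genes, both uncorrected for transcript length. The part of expression level in this was not tested, since levels of genes outside the list were not analysed here.

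**Figure D5:**
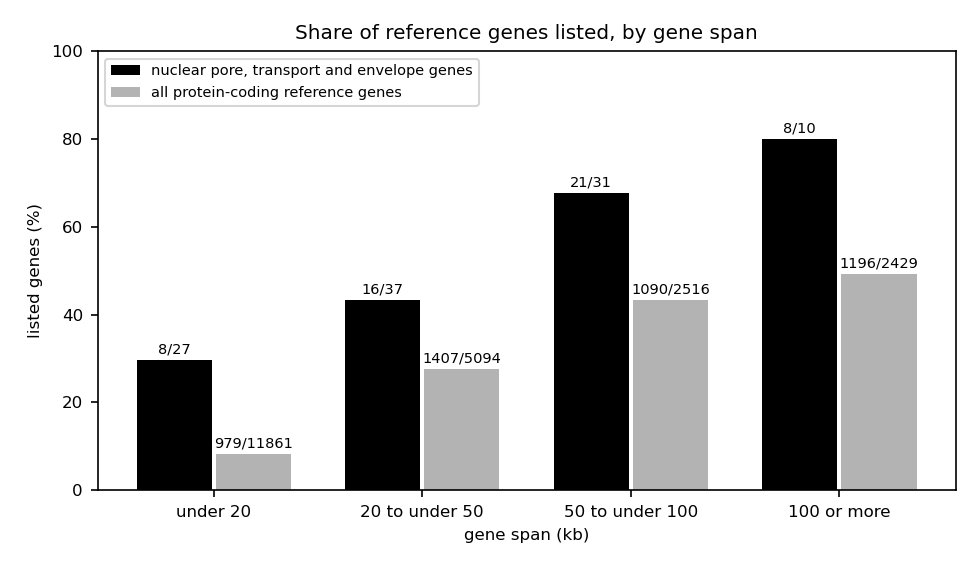
Percentage of protein-coding reference genes that were listed, by gene span in kb, for the genes matching the rule (black) and all protein-coding genes (grey), with the counts above the bars. Both shares grow with span, from 29.6% to 80.0% in the group and from 8.25% to 49.2% over all genes.

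Across the 53 listed genes the log2 ratio was nearly unrelated to the input level (Spearman's rho 0.04, Pearson's r -0.05) and weakly related to gene span (rho 0.22, r 0.18). By input level, the 11 genes under 10 CPM had a median log2 ratio of 1.21, the 29 from 10 CPM to under 100 CPM 1.40, and the 13 at 100 CPM or more 1.25, beside 1.21, 1.54 and 1.56 for all listed genes at those levels. Over all 4788 listed genes rho was 0.25 for input level and 0.16 for span. These are descriptions across genes that share both libraries, and the input level enters the ratio itself. Of the 53 genes, 15 overlap another protein-coding gene in the reference, and in 3 cases the overlapping gene was itself listed (*Nup214* with *Fam78a*, *Xpo7* with *Npm2*, *Nup88* with *Rabep1*). The others include genes with high ratios, *Tpr* (with *Odr4* and *Prg4*), *Senp1* (*Pfkm*), *Nup98* (*Art1* and *Pgap2*), *Syne2* (*Gm40447*) and *Pom121* (*Nsun5*). Whether the counting used strand is not given in the sources used here, so reads of overlapping genes cannot be told apart.

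A list written by hand held 51 other genes that the rule does not take, most of them, though not *Psip1* or *Bclaf1*, from these pathways. Of the 51, 8 were in the table (15.7%), beside 21.3% of all protein-coding genes. A log2 ratio above 1 was reached by 4 of the 8, beside 70.1% of all listed genes. *Thoc5*, a subunit of the THO mRNA export complex, had 61.6 CPM in input RNA and 170 CPM in RIP RNA (log2 ratio 1.45). *Terb1*, which tethers meiotic telomeres to the envelope, had 3.31 CPM and 9.55 CPM (1.29). *Pcid2*, a TREX-2 subunit, had 40.7 CPM and 90.2 CPM (1.13), and *Bclaf1*, an RNA processing factor, had 12.6 CPM and 26.6 CPM (1.02). The other listed genes were *Psip1* (0.89), *Thoc2* (0.85), *Ddx19b* (0.81) and *Phax* (0.50). *Ran* itself, its import factor *Nutf2* and the small scaffold nucleoporins *Sec13* and *Seh1l* were not listed.

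These log2 ratios are relative to the library totals. The listed genes took 14.2% of reads in the input but 55.2% in the FMRP RIP. Scaling the libraries to the reads outside the list multiplied every FMRP RIP value by 1.92 and raised the median of the 53 genes to 2.27, with that of all listed genes at 2.24. All 53 genes then had a log2 ratio above 1, so a count past this limit depends on the scaling. The share of all listed genes above 1 with this scaling is not given here, so the count says nothing particular to the group.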

How the data were processed

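The series holds 1 input and 1 FMRP RIP library of mouse testis, grouped by their labels. The authors deposited 1 table with CPM values for each library, and the submitters' processing notes name STAR and the builds GRCm38 and mm10 without a version. The counting tool is not given in the sources used here. Its columns of fold changes and p-values, which the methods credit to edgeR, were not used. The library totals were inferred as the read numbers that turned most low CPM values into whole reads. With these totals all CPM values were multiples of 0.01 reads. Only 78.4% of input values and 78.8% of FMRP RIP values above 0 were whole reads (within 0.005 reads), so no count test was run. Precision rests on counting error only. PCR reads are not independent molecules, so the intervals may be too narrow even for technical error.

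Members were found by symbol, and all 53 matched RefSeq symbols of GRCm38.p6. Of all listed genes, 4717 matched by symbol or a single synonym. Roles, pathway lists, marker lists and the rule for named genes were written by hand. Named are every member of a role with 6 or fewer, the extremes of larger roles and of all members, and those nearest a log2 ratio of 1. The members and lists were chosen with earlier results of these data known. No transcript or protein sequences were used here, so coding lengths, motifs and repeats were not computed. The functions were run on simulated whole reads, without fractional reads or selection of higher genes. This run checks the code and not the results. Analyses ran in scipy 1.17.1, pandas 2.3.3 and numpy 2.4.6 under Python 3.11.15, with figures from matplotlib 3.10.9.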

Additional observations from a re-analysis of the deposited data

How the results depend on the processing

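The count of genes with a log2 ratio above 1 was 35 (66.0%, beside 70.1% of all listed genes) and the median log2 ratio 1.34. Shares of all listed genes above 1 at the other settings are not given here, so those counts have no background beside them. A pseudocount of 5 CPM gave 32 genes and a median of 1.24, one below 1 CPM gave 35 and 1.41, no pseudocount gave 36 and 1.41, and leaving out the SUMO genes gave 31 and 1.37. Minimum levels (1 CPM in both libraries, or 100 reads over both) and unique symbols changed nothing, as every gene passed. Leaving out predicted, *Rgpd* and *Nxf* genes moved the listed share from 50.5% to 51.5%. Scaling by the reads on genes not listed gave 53 genes and a median of 2.27. With this scaling the role medians were 2.94 for the Y-complex, 2.52 for membrane proteins, 2.31 for cytoplasmic filaments, 4.09 for the basket, 1.94 for importin alpha, 2.14 for import receptors and 2.34 for export receptors. They were 2.76 for the Ran group, 2.96 for LINC, 2.33 for the lamina, 2.18 for SUMO conjugation and 2.77 for SUMO proteases. By construction it raises all genes alike, by 0.84 to 0.94 for the named genes. With a pseudocount of 5 CPM the medians fell for the Y-complex (1.78), basket (3.09), Ran group (1.72) and LINC complex (1.39), beyond the counting interval of each middle gene. The SUMO protease median fell to 1.76. Of its middle genes, *Senp1* moved by more than its interval and *Senp2* did not. Of 48 named genes, 18 moved by more than their interval with 5 CPM, by down to -0.67, and none with the smaller pseudocount or none. The LINC median was 2.37 with no pseudocount, within the counting interval of *Syne1*, its middle gene. No gene was at or under 3 input reads, and the lowest lower limit of a ratio was 1.37. No paired analysis was possible because there is only 1 library in either group.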
